A study of Mus musculus with 18 samples.

Results

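Megalin is the protein encoded by Lrp2, a very large endocytic receptor of the low density lipoprotein (LDL) receptor family. The report describes 10 genes chosen by symbol from the 52636 genes of the deposited count table, and all 10 were found. They comprise Lrp2 and the family receptors Lrp1, Lrp4, Lrp5, Lrp6, Lrp8 and Vldlr, together with Lrpap1, which encodes the receptor-associated chaperone RAP, and Dab2 and Cubn, which encode an adaptor and a co-receptor of megalin. The question was whether the other receptors of the family, or the partners of megalin, changed in the samples in which Lrp2 fell.

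Total RNA was sequenced from retinal pigment epithelium (RPE) preparations of C57BL/6 mice at postnatal day 14, in 6 groups of 3 libraries. Uninjected mice were compared with mice injected under the retina at birth with an adeno-associated virus (AAV8) that expressed from the Best1 promoter, which is active in RPE, either GFP, the N-terminal nuclear fragment of mouse SREBP2 (nSREBP2), a control hairpin against LacZ (ctrl sh) or one of 2 hairpins against Lrp2 (Lrp2 sh1 and Lrp2 sh2). The hairpin vectors carried mCherry in place of GFP, and the GFP and ctrl sh groups, which also received a vector, are the controls for the nSREBP2 and Lrp2 hairpin groups. Both eyes of 1 mouse were pooled in each library and the dissociated cells were triturated from eyecups after removal of the retina, so cells outside the RPE could be present. Libraries held 8921885 to 13696934 gene counts (median 11958033.5), and levels are given as counts per 1000000 (CPM) after scaling by the trimmed mean of M values (TMM), with 3 counts corresponding to 0.219 to 0.336 CPM.

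LDL receptor family proteins bind ligands through repeats of a cysteine-rich module and carry short cytoplasmic motifs that recruit adaptors such as DAB2 to clathrin-coated pits. Megalin and cubilin take up filtered proteins and vitamin carriers at the apical face of absorptive epithelia, and megalin also clears signalling proteins such as BMP4 and sonic hedgehog. LRP1 is a broad scavenger of proteases, protease inhibitors and lipoproteins, the VLDL receptor and LRP8 (ApoER2) transmit the reelin signal, LRP5 and LRP6 are Wnt co-receptors, and LRP4 binds agrin and Wnt inhibitors. Loss of megalin enlarges the eye in mice and in people, and SREBP2 is the transcription factor that raises cholesterol synthesis when sterols are low.

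Promoter windows of 300 bases, from 250 before to 50 after the annotated start of transcription (RefSeq, GRCm38.p6), were matched for 7 of the 10 genes in 11 windows. Lrp4, Lrp5 and Lrp6 had no matching entry. Windows were searched on both strands for 4 known or putative binding sequences of SREBP proteins: the E-box CACGTG, the SRE-like GTGGGG, a sterol regulatory element written TCACNCCAC and the predicted site TGGTGTGAC. A match shows the sequence only, and binding was not tested. GTGGGG was found in 4 of the 11 windows, against 28.7% of all 32851 promoter windows, and no window held one of the other 3, which were present in 7.15%, 1.24% and 0.292% of all windows. The windows of Lrp2, Lrp1, Lrp8 and Vldlr are shown because these genes passed the test below with nSREBP2. Capitals mark GTGGGG or its reverse complement CCCCAC, at position -48 in Lrp2, -121 and -27 in Lrp1 and -220 in Lrp8 relative to the start of transcription. The lines give Lrp2 (chr2:69585980-69586279, minus strand), Lrp1 (chr10:127621099-127621398, minus strand), the first of 3 Lrp8 windows (chr4:107802635-107802934, plus strand) and the first of 2 Vldlr windows (chr19:27216234-27216533, plus strand), each written 5′ to 3′ along the gene.
Lrp2: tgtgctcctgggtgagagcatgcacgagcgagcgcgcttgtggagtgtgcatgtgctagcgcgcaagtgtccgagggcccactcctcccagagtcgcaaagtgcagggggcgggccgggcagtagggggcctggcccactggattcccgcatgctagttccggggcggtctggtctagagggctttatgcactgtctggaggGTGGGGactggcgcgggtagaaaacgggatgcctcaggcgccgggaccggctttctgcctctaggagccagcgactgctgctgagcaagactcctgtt
Lrp1: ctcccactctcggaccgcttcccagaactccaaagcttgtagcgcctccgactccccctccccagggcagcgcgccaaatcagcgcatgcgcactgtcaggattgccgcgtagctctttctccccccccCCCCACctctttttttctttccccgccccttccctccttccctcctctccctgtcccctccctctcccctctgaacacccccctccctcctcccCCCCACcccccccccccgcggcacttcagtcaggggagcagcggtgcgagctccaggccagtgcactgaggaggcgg
Lrp8: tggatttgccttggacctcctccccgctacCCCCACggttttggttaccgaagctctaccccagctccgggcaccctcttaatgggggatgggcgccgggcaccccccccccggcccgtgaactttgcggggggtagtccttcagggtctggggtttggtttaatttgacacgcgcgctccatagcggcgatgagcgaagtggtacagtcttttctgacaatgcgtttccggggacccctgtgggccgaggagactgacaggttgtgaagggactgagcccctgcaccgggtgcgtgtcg
Vldlr: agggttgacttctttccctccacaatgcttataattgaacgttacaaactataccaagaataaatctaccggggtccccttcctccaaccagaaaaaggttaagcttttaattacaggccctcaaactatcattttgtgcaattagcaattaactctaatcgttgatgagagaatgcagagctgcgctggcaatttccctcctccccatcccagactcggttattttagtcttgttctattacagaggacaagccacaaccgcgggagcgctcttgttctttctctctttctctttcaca
The fourth window with a match belonged to the second start of Dab2, at position -191. Neither Vldlr window held any of the 4 sequences, nor did those of Lrpap1 and Cubn.

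The manipulated genes followed their labels. Srebf2, the gene of SREBP2, stood at 207 to 236 CPM with nSREBP2 and at 82.9 to 113 CPM with GFP, and Lrp2 was lower in every nSREBP2 and Lrp2 hairpin library than in any library of the other 3 groups. Pigment genes of the RPE were abundant in all groups (Tyrp1 at 1546 to 3181 CPM, Pmel at 1899 to 3207 CPM), but Rpe65, the visual cycle isomerase that defines mature RPE, was at 371 to 1115 CPM in uninjected libraries and at 1.06 to 97.8 CPM in the injected ones. Fibroblast markers were also abundant, at 18272 to 86217 CPM summed over 6 genes. Counts of Y-linked genes were present in all 3 nSREBP2 libraries, in 2 Lrp2 sh2 libraries and 1 uninjected library, and in none of the GFP, ctrl sh and Lrp2 sh1 libraries, so sex and group coincided between nSREBP2 and GFP. In tissue of this kind, fewer cells of a type and less RNA per cell cannot be told apart.

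Compared per kilobase of merged exons, Lrp1 was the most abundant of the 10 genes in each of the 6 groups. In uninjected libraries it reached 146 ± 11.9 CPM per kilobase (SD, n = 3), which was 50.3% of the summed level of the 10 genes, and the 3 libraries lay clear of those of Lrp6, the next gene, at 47.8 ± 2.33 CPM per kilobase. Dab2, Lrp5 and Lrpap1 followed at 22.7 ± 1.28, 22.1 ± 2.20 and 21.5 ± 1.53 CPM per kilobase with overlapping ranges. Lrp8 (8.84 ± 3.54), Lrp4 (7.56 ± 1.33), Lrp2 (6.85 ± 3.08) and Vldlr (6.16 ± 1.91 CPM per kilobase) formed a lower tier in which each gene overlapped its neighbour. Cubn, at 0.577 ± 0.0421 CPM per kilobase, was below all others. Thus Lrp2 supplied 2.36% of the summed level in uninjected tissue (1.18% to 3.22% over the 3 libraries). The shares of Lrp2 and Lrp1 were 3.01% and 49.8% with GFP, against 0.518% and 64.9% with nSREBP2. They were 2.49% and 49.8% with ctrl sh, 0.712% and 62.8% with Lrp2 sh2, and 0.703% and 53.8% with Lrp2 sh1.

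**Figure D1:**
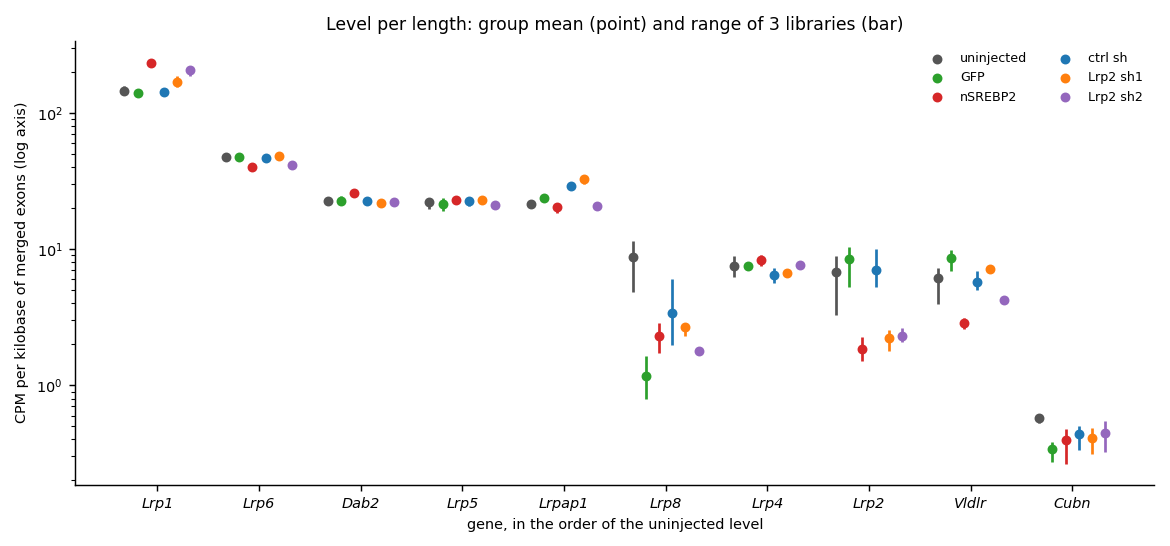
Level of the 10 genes as CPM per kilobase of merged exons (y axis, log scale) in the 6 groups (colours), with the mean of 3 libraries as a point and their range as a bar. Lrp1 lies highest and Cubn lowest in each group, Lrp2 and Vldlr drop in the nSREBP2 group, and Lrp8 is spread from 1.18 CPM per kilobase with GFP to 8.84 in uninjected libraries.

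With nSREBP2, 5 of the 10 genes passed an adjusted P of 0.05 against GFP (edgeR's quasi-likelihood test, Benjamini-Hochberg adjustment over all genes tested). Lrp2, Vldlr and Lrp6 were lower, and Lrp1 and Lrp8 were higher. The background was 21% of the 17927 genes tested, 12.6% higher and 8.47% lower. The median log2 fold change of the 10 genes was 0.12, against -0.02 for all genes tested. Groups did not overlap for 7 of the 10 genes, against 37.5% of all genes.

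Both hairpins lowered Lrp2, but they differed in what else changed. With Lrp2 sh1, Lrp2 alone of the 10 genes passed the test against ctrl sh, where the background was 5.33% of 17801 genes (3.06% higher, 2.28% lower). An unadjusted P under 0.05 was reached by 4 of the 10, a limit at which the share of all genes was not counted. With Lrp2 sh2, 4 of 10 passed against the same 3 control libraries, where the background was 18.1% of 18089 genes (8.59% higher, 9.48% lower): Lrp2, Vldlr and Lrpap1 were lower and Lrp1 was higher. Median log2 fold changes of the 10 genes were 0.02 for Lrp2 sh1 and -0.13 for Lrp2 sh2, against -0.01 and 0.01 for all genes. Groups did not overlap for 3 of the 10 genes with Lrp2 sh1, against 25.1% of all genes, and for 6 of 10 with Lrp2 sh2, against 36.8%. Compared directly, Lrp2 sh2 and Lrp2 sh1 did not differ detectably in Lrp2 (log2 fold change 0.08 ± 0.13 SE, adjusted P = 0.728), yet 5 of the other 9 genes differed, with a background of 22.4% of 17975 genes (10.2% higher, 12.3% lower). Lrp1 was higher with Lrp2 sh2, while Lrp6, Lrp8, Vldlr and Lrpap1 were lower, and 6 of the 10 genes did not overlap, against 39.0% of all genes.

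Of the 10 genes, 1 passed the test between each vector control and the uninjected libraries. These groups differed by the injection as well as by the vector, which cannot be told apart here. Only Lrp8 passed the test of GFP against uninjected libraries (background 2.48% of 17837 genes, 0.662% higher and 1.82% lower), and only Lrpap1 passed the test of ctrl sh against uninjected libraries (background 6.49% of 17822 genes, 3.13% higher and 3.37% lower). Groups did not overlap for 2 of the 10 genes in each of these comparisons, against 25.7% and 32.2% of all genes. Over the 6 groups together, 6 of the 10 genes differed between at least 2 groups, against 48.7% of the 19744 genes tested: Lrp2, Lrp1, Lrp6, Lrp8, Vldlr and Lrpap1, with adjusted P from 4.83e-06 for Lrpap1 to 0.00776 for Lrp6. Lrp4, Dab2, Cubn and Lrp5 did not pass (adjusted P = 0.0685, 0.0506, 0.144 and 0.706).

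A second limit, an absolute log2 fold change above 1, left Lrp2 and Vldlr with nSREBP2 (background 6.67%), Lrp2 with Lrp2 sh1 (background 0.994%) and with Lrp2 sh2 (background 4.76%), and Lrp8 with GFP against uninjected libraries (background 1.41%). It left none of the 10 genes for ctrl sh against uninjected libraries (background 2.39%) or between the hairpins (background 5.13%). For the difference between nSREBP2 and the hairpins it left Vldlr (background 2.28%). At the adjusted P alone, 1 gene passed for ctrl sh against uninjected libraries (background 6.49%) and 5 between the hairpins (background 22.4%). In these 2 comparisons 2 and 6 genes had an unadjusted P under 0.05, a limit at which the share of all genes was not counted.

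**Figure D2:**
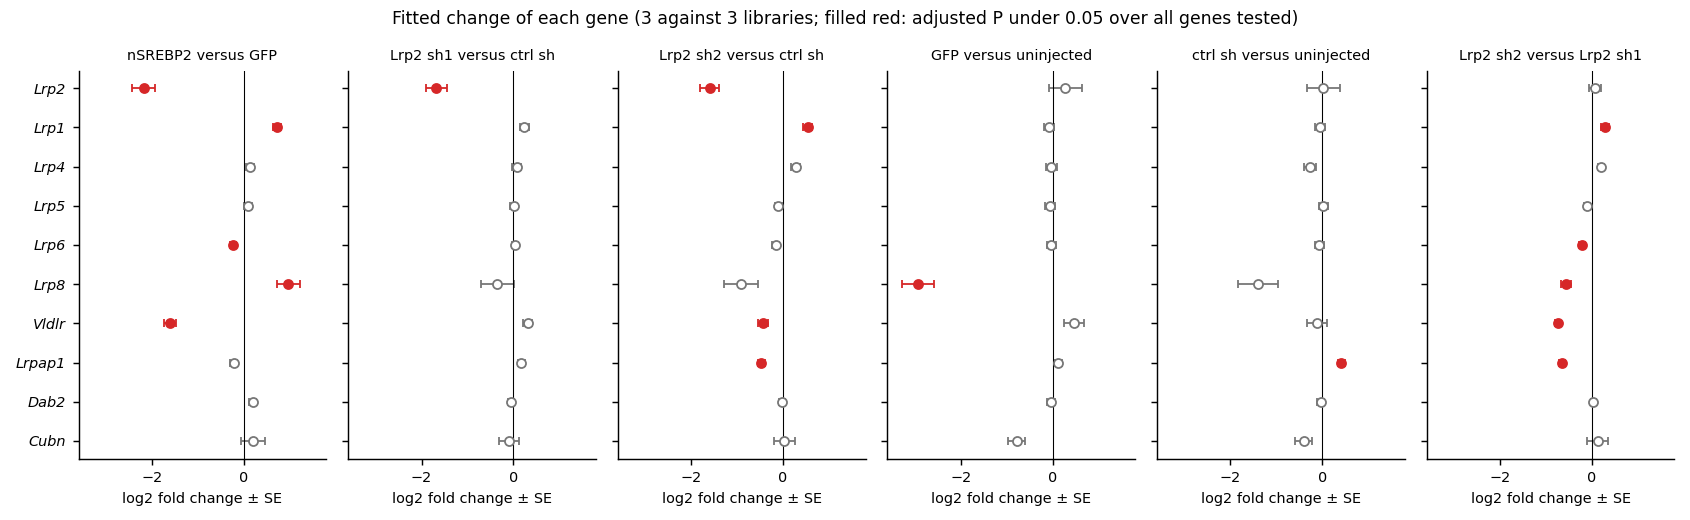
Log2 fold change ± SE (x axis) of the 10 genes (rows) in the 6 comparisons of 3 against 3 libraries (panels), with genes at an adjusted P under 0.05 in filled red. Lrp2 is lower in the first 3 panels, Vldlr is lower with nSREBP2 and Lrp2 sh2 but not with Lrp2 sh1, and Lrp8 falls by 2.93 on the log2 scale with the GFP vector.

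Lrp2 (chr2:69424340-69586065, minus strand, GENCODE M21) was measured at 175, 160.3 and 87.6 CPM in the GFP libraries and at 38.1, 29.8 and 25.3 CPM in the nSREBP2 libraries. The groups were well apart, and the fitted fall was 4.54-fold (log2 fold change -2.18 ± 0.24 SE, adjusted P = 0.000233). In the ctrl sh libraries Lrp2 was at 167, 87.7 and 100.2 CPM, against 29.7, 42.8 and 38.2 CPM with Lrp2 sh1 and 37.8, 34.5 and 43.9 CPM with Lrp2 sh2. All hairpin libraries were therefore below all ctrl sh libraries, by 3.21-fold with Lrp2 sh1 (log2 fold change -1.68 ± 0.22, adjusted P = 0.00328) and 3.03-fold with Lrp2 sh2 (-1.60 ± 0.21, adjusted P = 0.00109). The fall with nSREBP2 exceeded the mean fall with the hairpins by 0.55 on the log2 scale, which did not pass the test of the difference (log2 difference -0.55 ± 0.42 SE, adjusted P = 0.523).

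Lrp2 varied widely where it was not manipulated. In uninjected libraries it was at 55.3, 139 and 149 CPM, and the 9 uninjected, GFP and ctrl sh libraries spanned 3.16-fold, whereas the 9 nSREBP2 and Lrp2 hairpin libraries spanned 1.73-fold (25.3 to 43.9 CPM). Neither vector control passed the test against uninjected libraries (log2 fold change 0.28 ± 0.35 for GFP, adjusted P = 0.699, and 0.03 ± 0.35 for ctrl sh, adjusted P = 0.972).

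**Figure D3:**
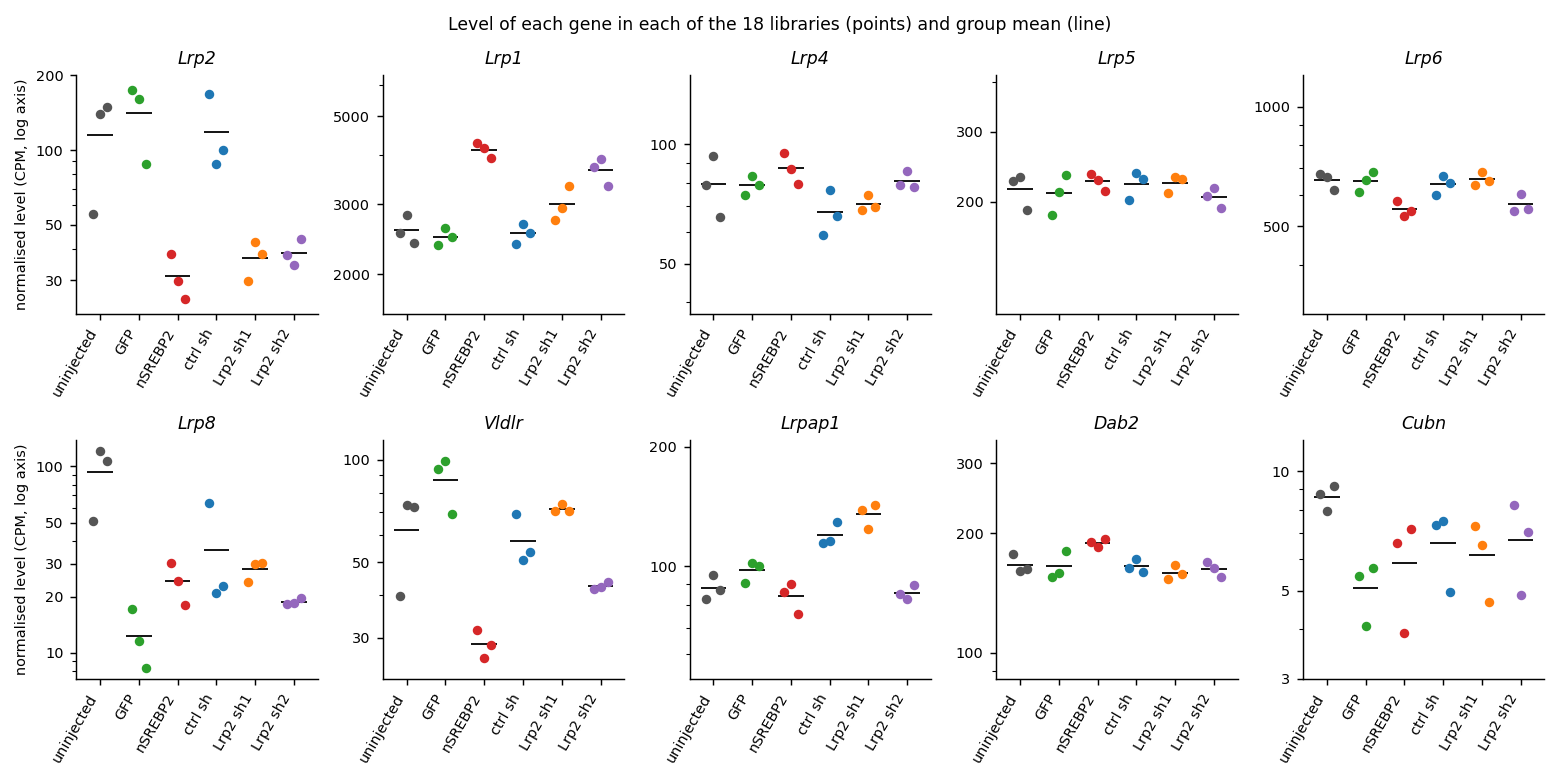
Normalised level of each gene (CPM, log axis, 1 panel a gene) in each of the 18 libraries (points, coloured by group), with the group mean as a line. Lrp2 is at 25.3 to 43.9 CPM in the 9 nSREBP2 and Lrp2 hairpin libraries and at 55.3 to 175 CPM in the others, and Lrp1 is highest in the nSREBP2 libraries.

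Cubn and Dab2, the partners that act with megalin in uptake, did not pass the test in any comparison. Cubn (chr2:13276338-13491813, minus strand), the gene of the peripheral membrane protein cubilin that depends on megalin for internalisation, was scarce, at 5.43, 4.08 and 5.70 CPM with GFP and 6.58, 3.92 and 7.13 CPM with nSREBP2. These ranges overlapped (log2 fold change 0.20 ± 0.25, adjusted P = 0.639), as did those of ctrl sh (7.33, 7.50 and 4.97 CPM), Lrp2 sh1 (7.27, 6.53 and 4.68 CPM) and Lrp2 sh2 (8.23, 4.86 and 7.03 CPM). Cubn stood highest in uninjected libraries, at 8.77, 7.93 and 9.16 CPM, and its lower value with GFP missed the threshold (log2 fold change -0.78 ± 0.19, adjusted P = 0.0682) except with no filter on low counts (adjusted P = 0.0397). Of the Cubn exon bases, 2.46% overlapped an annotated gene on the opposite strand.

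Dab2 (chr15:6299788-6440712, plus strand), whose product links the tails of megalin and other receptors of the family to clathrin and AP2, kept to a narrow band of 153 to 193 CPM over the 18 libraries. With nSREBP2 it was at 190.1, 185 and 193 CPM, just above the 156, 159 and 181 CPM of the GFP libraries, and this difference did not pass (log2 fold change 0.19 ± 0.07, adjusted P = 0.0987). It did pass when GFP replicate 3 was left out (log2 fold change 0.27, adjusted P = 0.016). Neither hairpin passed the test for Dab2, with log2 fold changes of -0.05 ± 0.06 for Lrp2 sh1 (adjusted P = 0.688) and -0.01 ± 0.06 for Lrp2 sh2 (adjusted P = 0.918). Of the Dab2 exon bases, 2.87% overlapped a gene annotated on the opposite strand.

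Lrpap1 (chr5:35091501-35105766, minus strand) encodes RAP, the endoplasmic reticulum chaperone that keeps newly made receptors of the family from binding ligand too early. With ctrl sh it was at 114, 116 and 129 CPM, and with Lrp2 sh2 it was at 85.0, 82.5 and 90.0 CPM. The groups did not overlap, and Lrpap1 was 1.39-fold lower with Lrp2 sh2 (log2 fold change -0.47 ± 0.07, adjusted P = 0.0022), a call kept in all 6 fits that left out 1 library. With Lrp2 sh1 the values were 138, 124 and 143 CPM, which overlapped those of ctrl sh (0.17 ± 0.07, adjusted P = 0.231), and the difference between the hairpins passed the test (-0.65 ± 0.07, adjusted P = 0.000163). The reference mattered here. Uninjected libraries were at 82.7, 95.1 and 87.1 CPM, below ctrl sh (log2 fold change of ctrl sh 0.42 ± 0.08, adjusted P = 0.0255), and against them Lrp2 sh2 did not pass (-0.05, adjusted P = 0.667) while Lrp2 sh1 was higher (0.60, adjusted P = 0.00134). The call of ctrl sh against uninjected libraries was lost without uninjected replicate 3 (adjusted P = 0.0724), ctrl sh replicate 2 (adjusted P = 0.0935) or ctrl sh replicate 3 (adjusted P = 0.104). With nSREBP2 Lrpap1 was at 85.9, 90.2 and 75.8 CPM, against 90.9, 102 and 100.2 CPM with GFP, and did not pass (-0.22 ± 0.08, adjusted P = 0.0939).

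Lrp1 (chr10:127538161-127621148, minus strand) moved opposite to Lrp2 with nSREBP2 and with Lrp2 sh2. It was at 2363, 2608 and 2479.8 CPM with GFP and at 4287, 4146 and 3913 CPM with nSREBP2. The groups were far apart relative to their spread, a 1.65-fold rise (log2 fold change 0.73 ± 0.08, adjusted P = 0.000197). The ctrl sh libraries were at 2388, 2676 and 2545 CPM, Lrp2 sh1 at 2734, 2930.1 and 3329 CPM, and Lrp2 sh2 at 3729, 3893 and 3331 CPM. Both hairpins lay above all ctrl sh libraries, and the rise passed with Lrp2 sh2 (1.45-fold, log2 fold change 0.54 ± 0.10, adjusted P = 0.00497) but not with Lrp2 sh1 (0.24 ± 0.09, adjusted P = 0.176). With Lrp2 sh1 the rise did pass with DESeq2 (0.25, adjusted P = 0.0475) and with no filter on low counts (0.25, adjusted P = 0.044).

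The difference of Lrp1 between both hairpins was itself past the threshold (0.29 ± 0.09, adjusted P = 0.0427), although 5 of the 6 fits that left out 1 library lost it (adjusted P = 0.161, 0.15, 0.0844, 0.125 and 0.0573 without Lrp2 sh1 replicates 1 and 2 and Lrp2 sh2 replicates 1, 2 and 3). The rise with nSREBP2 exceeded the mean of both hairpins by 0.33 ± 0.11 (adjusted P = 0.0985). Uninjected libraries, at 2543, 2812 and 2397 CPM, overlapped both vector controls.

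Fibroblast markers moved with Lrp1 in part. All 6 of 6 (Col1a1, Col1a2, Col3a1, Dcn, Lum and Pdgfra) were higher with nSREBP2 than with GFP, and their summed level was 70876 to 86217 CPM against 34265 to 43622 CPM. Macrophage markers were likewise higher with nSREBP2, in 6 of 7 genes (574.7 to 620.2 CPM summed, against 335 to 405 CPM), and rod markers were at 222 to 313 CPM against 27.2 to 274 CPM. Their part in the rise of Lrp1 with nSREBP2 was not tested. With Lrp2 sh2 the summed fibroblast level was 42250 to 50495 CPM, which overlapped the 33071 to 46708 CPM of ctrl sh, and 2 of 6 markers (Col3a1 and Lum) were higher. With Lrp2 sh1, where Lrp1 did not pass, it was 44215 to 53455 CPM with none of 6 markers past the test. Rod markers were at 72.3 to 376 CPM summed with Lrp2 sh2, against 13.1 to 41.5 CPM with ctrl sh, and 7 of 8 were higher, and their part in the rise of Lrp1 with Lrp2 sh2 was not tested.

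**Figure D4:**
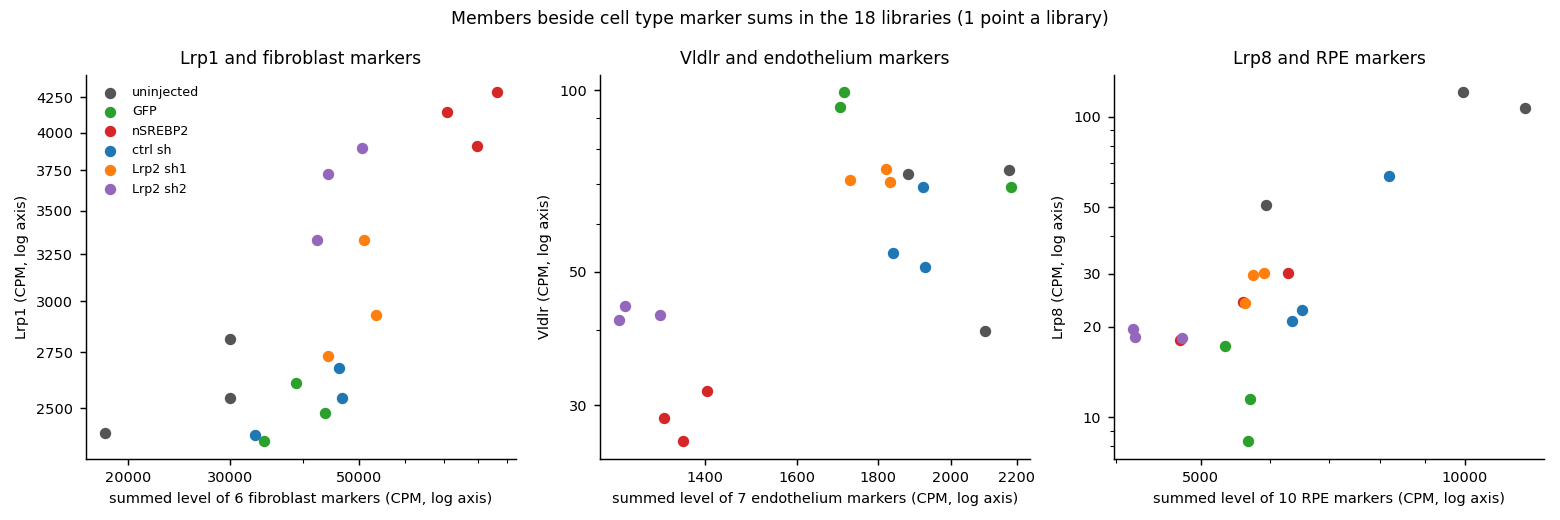
Lrp1, Vldlr and Lrp8 (y axes, CPM, log scale) beside the summed level of fibroblast, endothelium and RPE markers (x axes, CPM, log scale), 1 point a library, coloured by group. The nSREBP2 libraries lie highest for both Lrp1 and fibroblast markers, the nSREBP2 and Lrp2 sh2 libraries lie lowest for endothelium markers and include the lowest Vldlr values, and 2 of the 3 uninjected libraries lie highest for Lrp8.

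Vldlr (chr19:27216484-27254231, plus strand), the receptor of VLDL and reelin, separated the 3 treatments in which Lrp2 fell. It was at 93.7, 99.4 and 69.1 CPM with GFP and at 31.7, 26.1 and 28.5 CPM with nSREBP2, a 3.04-fold fall (log2 fold change -1.61 ± 0.13, adjusted P = 3.88e-05). With Lrp2 sh2 it was at 41.6, 42.3 and 43.9 CPM, below the 69.2, 50.8 and 53.6 CPM of ctrl sh by 1.35-fold (-0.43 ± 0.11, adjusted P = 0.0231). With Lrp2 sh1 it was at 70.5, 74.1 and 70.9 CPM, above every ctrl sh library, and this did not pass (0.31 ± 0.10, adjusted P = 0.119), although it did without ctrl sh replicate 1 (0.46, adjusted P = 0.00242) and with no filter on low counts (0.32, adjusted P = 0.033). Thus Vldlr lay on opposite sides of ctrl sh under the 2 hairpins, although Lrp2 was at similar levels.

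The difference in Vldlr between Lrp2 sh2 and Lrp2 sh1 was -0.75 ± 0.06 (adjusted P = 2.57e-05), and it held in all 6 fits without 1 library. Vldlr was also the only one of the 10 genes whose response to nSREBP2 differed from the mean response to the hairpins (log2 difference -1.55 ± 0.24, adjusted P = 0.000734, against a background of 5.83% of 19744 genes, 3.32% higher and 2.51% lower), a call kept in all 18 fits that left out 1 library. The call of Lrp2 sh2 against ctrl sh was less firm: it was lost without Lrp2 sh2 replicate 1 (adjusted P = 0.0675) or replicate 2 (adjusted P = 0.0727), in the fit of all 18 libraries (adjusted P = 0.0962) and against uninjected libraries (adjusted P = 0.0772). Uninjected libraries ranged from 39.8 to 73.6 CPM and neither GFP (0.47 ± 0.22, adjusted P = 0.279) nor ctrl sh (-0.12 ± 0.22, adjusted P = 0.759) passed the test against them.

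Endothelium markers were lower in the same 2 groups as Vldlr. Of 7 markers, 5 fell with nSREBP2 against GFP (1320 to 1404 CPM summed, against 1703 to 2182 CPM) and 6 fell with Lrp2 sh2 against ctrl sh (1237 to 1313 CPM, against 1838 to 1926 CPM), whereas none passed with Lrp2 sh1 (1729 to 1832 CPM). All 7 were lower with Lrp2 sh2 than with Lrp2 sh1. Of 10 RPE markers, 3 were lower and 2 higher with nSREBP2 against GFP. Against ctrl sh, 5 of these were lower with Lrp2 sh2 and 1 with Lrp2 sh1. Of 5 blood markers, 5 were lower with Lrp2 sh2, 1 with Lrp2 sh1 and 0 with nSREBP2. The part of any of these markers in the fall of Vldlr was not tested.

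Lrp8 (chr4:107802261-107876840, plus strand), the second reelin receptor, had the largest change of the 10 genes with the GFP vector. It was at 50.7, 121 and 107 CPM in uninjected libraries and at 17.2, 11.5 and 8.33 CPM with GFP, a 7.63-fold fall (log2 fold change -2.93 ± 0.35, adjusted P = 0.00634) that passed in all 6 fits without 1 library. With ctrl sh it was at 63.6, 20.9 and 22.8 CPM, which overlapped the uninjected range and did not pass (-1.39 ± 0.44, adjusted P = 0.0933). It did pass without ctrl sh replicate 1 (-2.11, adjusted P = 0.0212), in the fit of all 18 libraries without and with sex (adjusted P = 0.0149 and 0.0337) and with no filter on low counts (adjusted P = 0.00997).

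The nSREBP2 libraries, at 30.3, 24.2 and 18.1 CPM, were above all GFP libraries (log2 fold change 0.97 ± 0.25, adjusted P = 0.023) and below all uninjected libraries (-1.96, adjusted P = 0.00177). The direction of the Lrp8 response to nSREBP2 thus depended on the control. The call against GFP was lost without GFP replicate 2 (adjusted P = 0.0856), nSREBP2 replicate 1 (adjusted P = 0.0913) or nSREBP2 replicate 2 (adjusted P = 0.0651), and in the fit of all 18 libraries, both without sex (0.96, adjusted P = 0.0954) and with it (0.75, adjusted P = 0.466).

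Lrp8 was at 24.0, 29.8 and 30.2 CPM with Lrp2 sh1 and at 18.3, 18.5 and 19.6 CPM with Lrp2 sh2. Neither passed against ctrl sh (-0.35 ± 0.36, adjusted P = 0.655, and -0.92 ± 0.37, adjusted P = 0.117), although Lrp2 sh2 did with no filter on low counts (adjusted P = 0.0157), and Lrp2 sh2 was below Lrp2 sh1 (-0.57 ± 0.11, adjusted P = 0.00404). In the fit of all 18 libraries, which shares 1 estimate of the spread with the variable uninjected and ctrl sh groups, this difference had an adjusted P of 0.326, and of 0.36 with sex in the model. The sum of 10 RPE markers was 5936 to 11714 CPM in uninjected, 5324 to 5689.6 CPM in GFP, 4728 to 6287 CPM in nSREBP2, 6357 to 8204 CPM in ctrl sh, 5620.2 to 5911 CPM in Lrp2 sh1 and 4187 to 4756 CPM in Lrp2 sh2 libraries, and 5 of the 10 (Lrat, Rpe65, Rlbp1, Rdh5 and Ttr) were lower with GFP than in uninjected libraries. In the GFP libraries most of the RPE marker sum came from the pigment genes Tyrp1 (2232 to 2455 CPM) and Pmel (2577 to 2772 CPM). Rpe65 added 1.06 to 2.29 CPM there, so the sum says little about such genes. Of the 10 RPE markers, 5 were also lower with Lrp2 sh2 than with Lrp2 sh1. Their part in the Lrp8 levels was not tested.

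Among the Wnt co-receptors, Lrp6 (chr6:134446476-134566965, minus strand) was at 610.1, 655 and 685 CPM with GFP and at 579.9, 529 and 547 CPM with nSREBP2. The groups did not overlap, and the fall was small (1.18-fold, log2 fold change -0.24 ± 0.07, adjusted P = 0.0354). This call was lost in 5 of 6 fits without 1 library (adjusted P = 0.116 and 0.0578 without GFP replicates 2 and 3, and 0.0629, 0.123 and 0.113 without nSREBP2 replicates 1, 2 and 3) and with sex in the model (-0.23, adjusted P = 0.17). Lrp6 was at 598, 669 and 642 CPM with ctrl sh, 636, 685 and 648 CPM with Lrp2 sh1 and 547, 603 and 551 CPM with Lrp2 sh2. Neither hairpin passed against ctrl sh (0.04 ± 0.07, adjusted P = 0.783, and -0.16 ± 0.08, adjusted P = 0.2), and the lower value of Lrp2 sh2 against Lrp2 sh1 (-0.21 ± 0.06, adjusted P = 0.0418) was lost without any of 5 libraries (adjusted P = 0.0756, 0.161 and 0.0807 without Lrp2 sh1 replicates 1, 2 and 3, and 0.0849 and 0.155 without Lrp2 sh2 replicates 1 and 3). The call between the hairpins was also lost with sex in the model (-0.20, adjusted P = 0.134).

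Lrp5 (chr19:3584828-3686564, minus strand), the Wnt and norrin co-receptor needed for retinal vessels, stayed between 184 and 236 CPM in all 18 libraries. Its log2 fold change was 0.10 ± 0.09 with nSREBP2 (adjusted P = 0.499), 0.01 ± 0.07 with Lrp2 sh1 (adjusted P = 0.979) and -0.10 ± 0.08 with Lrp2 sh2 (adjusted P = 0.425). Lrp4 (chr2:91457511-91513779, plus strand), the agrin receptor, ranged from 59.2 to 94.9 CPM. It was at 79.0, 85.7 and 78.0 CPM with Lrp2 sh2, above the 59.2, 76.8 and 66.1 CPM of ctrl sh, and the difference missed the threshold (0.28 ± 0.10, adjusted P = 0.0879) except without ctrl sh replicate 2 (0.38, adjusted P = 0.027). With nSREBP2 and Lrp2 sh1 its log2 fold changes were 0.14 ± 0.08 (adjusted P = 0.275) and 0.07 ± 0.09 (adjusted P = 0.743).

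When the model of all 18 libraries included sex, read from Y-linked genes and Xist, Lrp2, Lrp1 and Vldlr still passed for nSREBP2 against GFP (log2 fold changes -2.54, 0.82 and -1.82, adjusted P = 0.0017, 0.000406 and 0.000222). For Lrp2 sh2 against ctrl sh, Lrp2 (-1.84), Lrp1 (0.59) and Lrpap1 (-0.48) passed and Vldlr did not (-0.58, adjusted P = 0.0888). In that model the estimate for sex rests on the uninjected and Lrp2 sh2 groups, the only groups that hold both sexes. Between nSREBP2 and GFP themselves, sex and group cannot be told apart.

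Across the 9 uninjected, GFP and ctrl sh libraries, in which nothing was done to Lrp2, its log2 level was compared with those of the other 9 genes. Vldlr followed Lrp2 (Pearson's r = 0.88, exact permutation P adjusted over the 9 genes = 0.0147; Spearman's rho = 0.80, adjusted P = 0.0574 by the same exact test), and Dab2 ran opposite (r = -0.82, adjusted exact permutation P = 0.0373; rho = -0.75, adjusted P = 0.0574). Lrp6 ran opposite by rank (rho = -0.88, adjusted exact permutation P = 0.0277) and missed the threshold by Pearson (r = -0.74, adjusted P = 0.0722). The 2 libraries farthest from the median of Lrp2 were uninjected replicate 1 and GFP replicate 3. Without them r was 0.88 for Vldlr (adjusted exact permutation P = 0.141), -0.66 for Dab2 and -0.63 for Lrp6 (adjusted exact permutation P = 0.268 for both). None passed the threshold in the remaining libraries, although r of Vldlr kept its size. A test on fewer libraries is also less able to pass. After each value was centred on its group, r was 0.98 for Vldlr, -0.83 for Dab2 and -0.80 for Lrp6, with adjusted P = 0.0833, 0.104 and 0.104 by exact permutation within groups. The smallest P that permutation within groups can give is 0.00463 before adjustment, so this test has little room to pass. Lrp8 showed no pooled relation with Lrp2 (r = 0.14, adjusted exact permutation P = 0.814), and within groups its centred r was 0.91 (adjusted exact permutation P = 0.0833). Uninjected replicate 1 was the lowest and ctrl sh replicate 1 the highest library of its group for Lrp2, Vldlr and Lrp8 alike, and their RPE marker sums were also the lowest (5936 CPM) and the highest (8204 CPM) of their groups; the part of these marker levels in the relations was not tested.

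Over all 18 libraries, the genes whose log2 level was most like that of Lrp2, of 15036 compared, were Cdc37l1 (r = 0.91), Rab3ip (r = 0.90), Rragd (r = 0.90), Aff1 (r = 0.89) and Supt6 (r = 0.89). Rab3ip encodes an exchange factor for RAB8 and Rragd a GTPase that relays amino acid supply to mTORC1. Centred on group, their r was 0.72, 0.85, 0.90, 0.59 and 0.80. Of the 10 genes the nearest to Lrp2 was Vldlr, which ranked 425 of all genes with r = 0.70, and the most opposite was Lrp1 (r = -0.80). These values are a description, since the libraries share group differences.

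Other receptors of the LDL receptor and sortilin families followed no single direction. Of 12 listed genes 11 were tested. With nSREBP2 the median log2 fold change was 0.06, and 2 were lower, the sorting receptors Sorcs2 (-0.31 ± 0.09) and Sort1 (-0.29 ± 0.08), where 21% of all genes passed and 8.47% were lower. With Lrp2 sh1, 3 were higher and none lower (median 0.03), namely Lrp11 (1.09 ± 0.23), Sorl1 (0.78 ± 0.12) and Lrp12 (0.46 ± 0.09), where 5.33% of all genes passed. With Lrp2 sh2, 2 were higher, Lrp11 (1.57 ± 0.21) and Lrp1b (1.17 ± 0.20), and 2 were lower, Sort1 and Lrp3 (-0.54 ± 0.07), with a median of 0.04, where 18.1% of all genes passed. Lrp11, whose role is little known, was thus higher with both hairpins, at 9.40 to 13.9 CPM and 15.1 to 17.9 CPM against 3.59 to 7.04 CPM in the shared ctrl sh libraries.

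Genes of the uptake machinery passed the test at rates near those of all genes. Of 34 listed adaptors and coat or recycling genes 33 were tested, and 5 passed with nSREBP2 (2 higher, 3 lower), 2 with Lrp2 sh1 (1 each way) and 7 with Lrp2 sh2 (1 higher, 6 lower), with medians of -0.03, -0.01 and -0.06. These counts stand against 21%, 5.33% and 18.1% of all genes. Dab1, the adaptor that carries the reelin signal from VLDLR and LRP8, was lower in all 3 comparisons: 6.67 to 9.12 CPM with nSREBP2 against 16.8 to 30.4 CPM with GFP (-1.72 ± 0.22, adjusted P = 0.000554), and 14.9 to 17 CPM with Lrp2 sh1 (-1.04 ± 0.12, adjusted P = 0.00171) and 18.9 to 25.6 CPM with Lrp2 sh2 (-0.55 ± 0.13, adjusted P = 0.021) against 27.2 to 36.1 CPM with ctrl sh. Dab1 was itself higher with ctrl sh than in uninjected libraries, which held 7.36 to 15.3 CPM (1.49 ± 0.23, adjusted P = 0.0122). Cltb, a clathrin light chain, went opposite ways with the hairpins, to 207 to 230 CPM with Lrp2 sh1 (0.54 ± 0.07) and 72.3 to 78.4 CPM with Lrp2 sh2 (-1.0 ± 0.07) against 143 to 159.5 CPM with ctrl sh. Clcn5, the endosomal chloride transporter whose loss impairs megalin-dependent uptake in kidney, was higher with nSREBP2 (0.46 ± 0.08, adjusted P = 0.00428) and Lrp2 sh2 (0.44 ± 0.09, adjusted P = 0.00812). Ap2a2, an AP2 adaptor subunit, rose by 0.35 ± 0.06 with nSREBP2.

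Ligands of these receptors moved in both directions, and of the list only Pltp passed as lower in all 3 comparisons. Of 25 listed genes 24 were in the table and 17 or 18 were tested. With nSREBP2, 12 of 17 passed, 8 higher and 4 lower (median 0.15), against the background of 21%. Plaur, the urokinase receptor, rose from 5.26 to 8.78 CPM with GFP to 12.5 to 16 CPM (1.06 ± 0.20, adjusted P = 0.00519), and Clu, the apolipoprotein clusterin, fell by 1.07 on the log2 scale (SE 0.13). With Lrp2 sh1, 4 of 18 passed (1 higher, 3 lower, median -0.02; background 5.33%): lipoprotein lipase (Lpl) was higher (1.02 ± 0.12, adjusted P = 0.00167), and Pltp (-0.59 ± 0.14) and Apoe (-0.40 ± 0.08) were among the lower. With Lrp2 sh2, 9 of 17 passed (3 higher, 6 lower, median -0.21; background 18.1%), led by Ttr (-2.94 ± 0.38), the retinol-binding protein partner transthyretin, which also stands on the RPE marker list, and including the urokinase Plau (1.29 ± 0.11).

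Wnt and agrin partners of LRP4, LRP5 and LRP6 passed in both directions. Of 14 listed genes 12 were tested in the 3 comparisons, and 7 passed with nSREBP2 (1 higher, 6 lower, median -0.32), 3 with Lrp2 sh1 (1 higher, 2 lower, median -0.17) and 7 with Lrp2 sh2 (2 higher, 5 lower, median -0.23). Over all genes 12.6% were higher and 8.47% lower with nSREBP2, 3.06% and 2.28% with Lrp2 sh1, and 8.59% and 9.48% with Lrp2 sh2. Sostdc1, a secreted ligand of LRP4 to LRP6 that restrains Wnt and BMP signalling, was lower in each: 21.2 to 33.6 CPM with nSREBP2 against 49.1 to 58.1 CPM with GFP (-0.97 ± 0.14, adjusted P = 0.00115), and 52.7 to 59.6 CPM with Lrp2 sh1 (-1.44 ± 0.08, adjusted P = 6.12e-05) and 34.2 to 51.0 CPM with Lrp2 sh2 (-1.88 ± 0.14, adjusted P = 6.15e-05) against 144 to 172 CPM with ctrl sh. Like Dab1 it was higher with ctrl sh than in uninjected libraries, which held 46.1 to 73.2 CPM (1.28 ± 0.16, adjusted P = 0.00638). Sost, the related Wnt inhibitor sclerostin, was scarce and also passed as lower in all 3 comparisons. It fell from 2.54 to 5.14 CPM with ctrl sh to 0.680 to 1.32 CPM with Lrp2 sh1 (-1.99 ± 0.35). With Lrp2 sh2 it was at 0.0838 to 0.419 CPM (-3.86 ± 0.47), a range whose lowest value lies below the 3-count floor of 0.245 to 0.248 CPM in these libraries.

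Norrin (Ndp) and its receptor Fzd4, which signal with LRP5, both fell with nSREBP2, Ndp to 0.871 to 1.88 CPM from 3.37 to 5.78 CPM (-2.03 ± 0.35, adjusted P = 0.00308) and Fzd4 to 150 to 192 CPM from 326 to 351 CPM (-1.04 ± 0.09, adjusted P = 5.64e-05). Ndp was also lower with Lrp2 sh2 (-1.08 ± 0.24). Fzd4 went opposite ways with the hairpins. Against ctrl sh it was higher with Lrp2 sh1 (344 to 376 CPM against 269.6 to 289.6 CPM, 0.34 ± 0.06, adjusted P = 0.0141) and passed as lower with Lrp2 sh2. It was also lower with Lrp2 sh2 than with Lrp2 sh1.

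**Figure D5:**
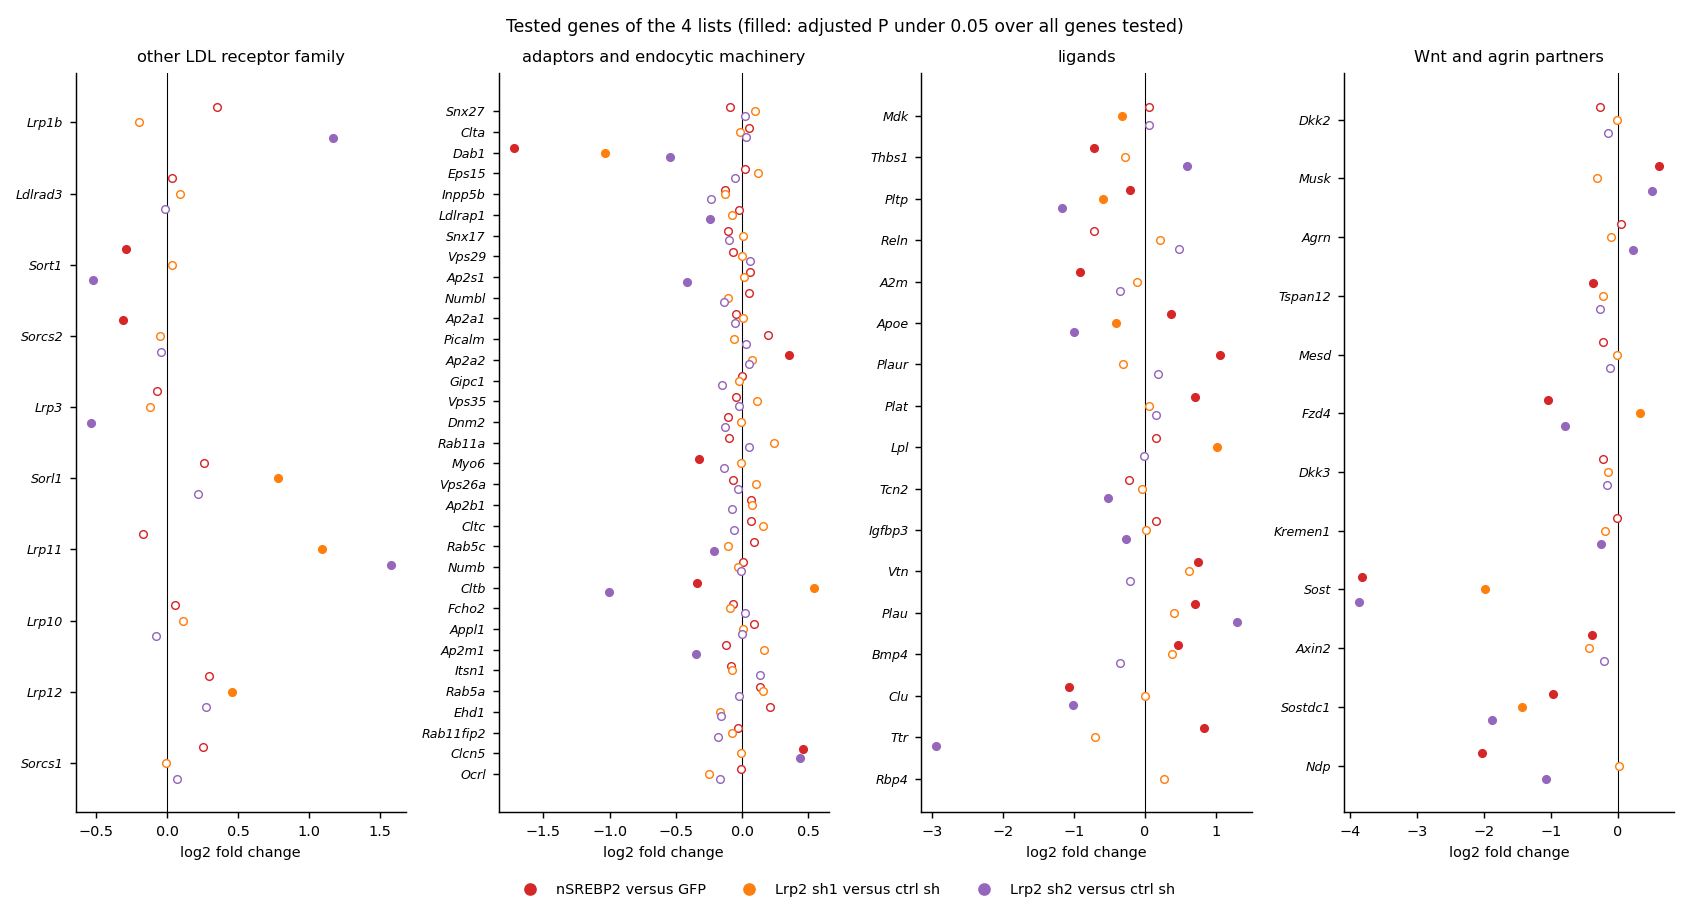
Log2 fold change (x axes) of tested genes of the 4 lists (rows) with nSREBP2 against GFP, Lrp2 sh1 against ctrl sh and Lrp2 sh2 against ctrl sh (colours), with filled points at an adjusted P under 0.05. Dab1, Pltp, Sost and Sostdc1 are filled and left of 0 in all 3 comparisons, and Cltb is filled on opposite sides with the 2 hairpins.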

How the data were processed

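RNA of 18 mouse libraries, 3 in each of 6 groups, was sequenced after ribosomal RNA depletion. Per the methods, the authors mapped reads to GRCm38 and counted them per gene with STAR 2.7.3a, and the deposited table holds these raw counts for each library. Which annotation was counted, and whether strand was used, is not given in the sources used here. Groups were taken from the sample labels. The 3 libraries of a group came from separate mice.

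Counts were tested with edgeR 4.0.16 (R 4.3.3; filterByExpr, TMM, glmQLFit and glmQLFTest) in the 2 groups of each comparison, with Benjamini-Hochberg adjustment over all genes tested and a threshold of 0.05. SE was computed as the absolute log2 fold change divided by the square root of F. The difference between nSREBP2 and the mean of both hairpins was tested in a fit of all 18 libraries. CPM used TMM factors over all 18 libraries. Lengths came from GENCODE M21, in which 49035 of 52636 gene identifiers were found. Correlations used exact permutation tests (scipy 1.17.1). Comparisons with the same control group share its 3 libraries, so they are not independent. Intervals are not given for counts, and 3 counts mark the floor, which covers counting error only.

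The 10 genes, the gene lists and the tests were chosen with earlier results of these data known. Within each list, up to 3 genes per comparison were named by the largest absolute log2 fold change among genes past the threshold whose groups did not overlap and whose mean log2 CPM reached 1. Genes named only as members of a count are given beside it, and 2 genes of the lists are not reported here. Alternatives were other normalization (DESeq2 size factors), DESeq2 1.42.0, other filters, all 18 libraries in 1 fit, sex as a covariate, the replicate number as a block, uninjected controls, a fold limit and leaving out each library. On simulated counts for Lrp2 sh1 against ctrl sh over 17469 genes, 94 of 100 genes changed by 2 on the log2 scale were recovered. Of 100 changed by 1, 68 were recovered. Beside these recovered genes stood 17 false calls. Smaller changes were not simulated, so their recovery is not known.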

Additional observations from a re-analysis of the deposited data

Results flagged for a closer look

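The responses to the 2 hairpins against Lrp2 differed in 5 of the 10 genes, by the direct test of Lrp2 sh2 against Lrp2 sh1 (edgeR's quasi-likelihood test, adjusted over all genes), where 22.4% of all genes differed. Leaving out 1 library gave 3 to 4 genes. The log2 difference was 0.29 for Lrp1 (adjusted P = 0.0427), -0.21 for Lrp6 (adjusted P = 0.0418), -0.57 for Lrp8 (adjusted P = 0.00404), -0.75 for Vldlr (adjusted P = 2.57e-05) and -0.65 for Lrpap1 (adjusted P = 0.000163). The libraries of these groups also differed in endothelium markers, all 7 of which were lower with Lrp2 sh2, in rod markers, of which 7 of 8 were higher, and in RPE markers, of which 5 of 10 were lower. The part of these markers in the differences was not tested. Counts of Y-linked genes were present in 2 Lrp2 sh2 libraries and in 0 Lrp2 sh1 libraries. With sex in the model of all 18 libraries, Lrp1, Vldlr and Lrpap1 still passed (adjusted P = 0.0322, 0.00968 and 0.000461 by the same test). Lrp6 and Lrp8 did not (adjusted P = 0.134 and 0.36), and Lrp8 did not in that fit without sex either (adjusted P = 0.326).

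The response of Vldlr to nSREBP2 and the mean response to both hairpins differed by -1.55 on the log2 scale (adjusted P = 0.000734). All nSREBP2 libraries held counts of Y-linked genes and no GFP library did. With sex in the model the difference was -1.69 (adjusted P = 0.00123 by the same test). The estimate for sex rests there on the uninjected and Lrp2 sh2 groups, so sex and nSREBP2 cannot be told apart.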

How the results depend on the processing

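Of the recomputed fold changes past the threshold, leave-one-out fits aside, 119 kept direction and threshold, 14 lost the threshold and 1 reversed. The reversal was Lrp8 with nSREBP2, at -1.96 with uninjected libraries as the control. The cause was not tested for any change given here.

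The number of the 10 genes past the threshold was 3 for nSREBP2 against GFP with sex in the model and 2 with the added fold limit. For Lrp2 sh1 against ctrl sh it was 3 with no filter on low counts, 3 with the uninjected control and 2 with DESeq2. For Lrp2 sh2 against ctrl sh it was 1 with the fold limit, and for GFP against uninjected libraries 2 with no filter. For ctrl sh against uninjected libraries it was 2 in the fit of all 18 libraries, 2 with sex in the model, 2 with no filter, 0 with the replicate block and 0 with the fold limit. Between the hairpins it was 3 with sex in the model and 0 with the fold limit, and for the difference between nSREBP2 and the hairpins it was 2 with no filter. The share of all genes past the threshold was not counted for these settings, the fold limit aside. Nor was it counted for fits with 1 library left out or with the replicate block, so these numbers have no background beside them. Of the correlations with Lrp2, 0 passed when centred on group and 0 without the 2 farthest libraries, where that of Lrpap1 was -0.65. Among genes not past the threshold, signs reversed with the uninjected control for Cubn with nSREBP2 (-0.58), for Lrp4 (-0.18) and Lrp6 (-0.00867) with Lrp2 sh1 and for Cubn with Lrp2 sh2 (-0.38), and with sex in the model for Dab2 with Lrp2 sh2 (0.0218), Lrp5 with ctrl sh (-0.0128), Lrp2 between the hairpins (-0.16) and Lrp4 in the difference between nSREBP2 and the hairpins (0.0666).

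Leaving out 1 library gave 3 to 5 genes for nSREBP2, 1 to 2 for Lrp2 sh1, 3 to 5 for Lrp2 sh2, 1 to 1 for GFP, 0 to 2 for ctrl sh, 3 to 4 between the hairpins and 1 to 2 for the difference between nSREBP2 and the hairpins. Log2 fold changes that crossed 0 ranged, with Lrp2 sh1, from -0.0201 to 0.179 for Lrp4, -0.0621 to 0.0569 for Lrp5, -0.0027 to 0.0853 for Lrp6, -0.63 to 0.36 for Lrp8 and -0.261 to 0.0631 for Cubn, and, with Lrp2 sh2, from -0.0474 to 0.0209 for Dab2 and -0.15 to 0.21 for Cubn. With GFP against uninjected libraries they ranged from -0.0497 to 0.53 for Lrp2, -0.14 to 0.10 for Lrp4, -0.14 to 0.0253 for Lrp5, -0.0691 to 0.0152 for Lrp6 and -0.11 to 0.0192 for Dab2, and with ctrl sh from -0.30 to 0.27 for Lrp2, -0.0931 to 0.0107 for Lrp1, -0.0511 to 0.0913 for Lrp5, -0.35 to 0.0165 for Vldlr and -0.0674 to 0.0200 for Dab2. Between the hairpins they ranged from -0.0612 to 0.19 for Lrp2 and -0.0500 to 0.31 for Cubn, and for the difference between nSREBP2 and the hairpins from -0.14 to 0.0577 for Lrp4.

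Replicate numbers did not pair the libraries: deviations of same-numbered libraries correlated at -0.187, -0.174 and -0.0679 between nSREBP2 and GFP, at -0.0883, -0.340 and -0.362 between Lrp2 sh1 and ctrl sh, at -0.0935, -0.259 and -0.270 between Lrp2 sh2 and ctrl sh, at 0.0164, 0.176 and -0.0398 between GFP and uninjected, at -0.244, -0.151 and -0.196 between ctrl sh and uninjected, and at -0.0308, 0.298 and 0.289 between the hairpins. With the replicate block, 4 of the 10 genes passed for nSREBP2, 1 for Lrp2 sh1, 4 for Lrp2 sh2, 1 for GFP against uninjected libraries, 4 between the hairpins and 1 for the difference between nSREBP2 and the hairpins; the calls lost were Lrp6 with nSREBP2 (adjusted P = 0.0932), Lrp1 between the hairpins (adjusted P = 0.0507) and Lrpap1 with ctrl sh (adjusted P = 0.0721). With lengths of the longest coding transcript, 22 of 60 ranks of the genes by level moved. The 3-count floor of 0.219 to 0.336 CPM limits statements on Sost with Lrp2 sh2.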
